A study of Mus musculus with 4 samples.

Results

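Genes for the uptake and intracellular binding of fatty acids were followed in mouse liver. The list held 10 genes: the scavenger receptor Cd36, the fatty acid binding proteins Fabp1, Fabp2, Fabp4, Fabp5 and Fabp7, the fatty acid transport proteins Slc27a1, Slc27a2 and Slc27a4, and the very low density lipoprotein receptor Vldlr. Members were found by their symbol in the deposited table, where 8 of the 10 had a row of their own among 22849 symbols. The other 2 occur only in rows that name several genes at once, Fabp4 in a row with Pmp2 and Slc27a2 in a row with Hdc. Those joint rows are given as such, because their values cannot be divided between the genes named.

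The livers came from male C57BL/6 mice, a common inbred strain, and for 12 weeks every mouse was fed a diet holding 60% fat. The vehicle group was fed that diet alone, and in the other group it also held 1.2 g of UAB126 per kg. UAB126 is known here only by its code name. Each group had 2 libraries, called vehicle 1 and 2 and UAB126 1 and 2, and no mice on a lean diet were in the comparison. The age of the mice is not given in the labels. Whether each library is a separate animal is not stated in the labels, and p-values here reflect only the scatter among these samples, which may in part be technical.

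Long-chain fatty acids reach the hepatocyte from plasma albumin and from lipoproteins. CD36 and the transport proteins of the SLC27 family aid their entry at the membrane, and several SLC27 proteins also join the fatty acid to coenzyme A. Inside the cell the small binding proteins of the FABP family carry the insoluble fatty acid through the cytosol. FABP1 is the liver form, FABP2 the form best known from the intestine, FABP4 the form of adipocytes and macrophages, FABP5 a broadly expressed form first described in skin, and FABP7 a brain form that also marks Kupffer cells, the resident liver macrophages. VLDLR binds lipoproteins rich in triglyceride and is normally low in liver. Genes of this group, Cd36 and Fabp4 among them, are known targets of the PPAR nuclear receptors, which fatty acids activate.

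Sequences just upstream of the start sites are shown for Fabp1 and Fabp2, which had the 2 highest levels among members with a row of their own and were lower in both UAB126 libraries, and for Cd36, whose groups overlapped. They are RefSeq promoter windows of build GRCm38.p6, cut to the 250 bases before the start site and written 5′ to 3′ on the strand of the gene. Capitals mark the nuclear receptor core AGGTCA, here in each case as its reverse complement. The positions are chr6:71199629-71199878 on the plus strand for Fabp1, chr3:122894822-122895071 on the plus strand for Fabp2 and chr5:17835897-17836146 on the minus strand for Cd36.
Fabp1: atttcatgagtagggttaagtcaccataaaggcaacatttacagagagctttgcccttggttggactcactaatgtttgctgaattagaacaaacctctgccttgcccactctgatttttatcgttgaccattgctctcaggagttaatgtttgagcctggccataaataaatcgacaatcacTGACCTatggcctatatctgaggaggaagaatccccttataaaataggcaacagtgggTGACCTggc
Fabp2: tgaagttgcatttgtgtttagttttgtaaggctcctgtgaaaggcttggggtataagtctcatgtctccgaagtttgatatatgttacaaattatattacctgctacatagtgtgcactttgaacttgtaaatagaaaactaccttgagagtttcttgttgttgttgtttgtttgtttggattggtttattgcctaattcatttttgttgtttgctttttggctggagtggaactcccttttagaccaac
Cd36: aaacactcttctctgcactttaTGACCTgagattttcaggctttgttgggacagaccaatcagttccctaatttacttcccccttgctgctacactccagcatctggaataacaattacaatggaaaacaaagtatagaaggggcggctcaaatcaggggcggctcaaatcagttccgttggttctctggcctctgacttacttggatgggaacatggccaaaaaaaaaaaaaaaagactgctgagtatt

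The Fabp1 stretch holds the core at 67 and at 9 bases upstream of its RefSeq start site, the Cd36 stretch holds it at 228 bases upstream, and the Fabp2 stretch does not hold these letters. The RefSeq start sites of Fabp1 and Cd36 differ from the gene positions given further below. By those positions Fabp1 begins at 71199827, so its core at 9 bases lies within the gene. Cd36, on the minus strand, spans 17781690 to 17888801, so its stretch lies inside the gene, before an internal start site. Windows were on record for 8 of the 10 members, 11 windows in all, each with 250 bases before and 50 bases after a start site. No window was matched for Fabp4 and Fabp5. On either strand the core was in 4 of the 11 windows (Fabp1, Cd36, Fabp7 and Slc27a2), beside 16.3% of all 32851 windows. The DR1 element, 2 such cores in direct repeat with 1 base between them, so that each match also holds the core, was in 0 of the 11 and in 0.0396% of all windows. TGATGNAA, a composite element of ATF and C/EBP factors, was in 1 window, of Vldlr, at 200 bases upstream (3.97% of all windows). The E-box CACGTG was in 1 window, of Slc27a1 (7.15% of all). Only exact letters were searched, so elements with a changed letter were missed. In Fabp1, for instance, the core at 67 bases is followed after 1 base by tggcct, which is not the exact core. An exact DR1 is so rare in all windows that finding 0 in 11 says little. A match in these letters, or its lack, describes the sequence only.

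The values are FPKM, fragments scaled to transcript length and to library depth, a scale on which levels of different genes can be set side by side. Most low values fell on steps of 1 fragment. If each library was scaled by its own depth, which the known settings do not show, these steps imply its number of fragments. That gives about 16600000, 9700000, 24100000 and 16900000 fragments in vehicle 1, vehicle 2, UAB126 1 and UAB126 2. By this reading vehicle 2 was the shallowest. The hepatocyte markers Ttr and Apoa1 were at 9453 FPKM or more in every library, while Alb is listed at 0 in 3 of the 4, so a 0 in this table is only called a listed 0. The 4 libraries correlated with each other at 0.914 to 0.959 (Pearson, log2 values across genes).

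No member passed the threshold, while levels ran from 0.658 FPKM (Vldlr in vehicle 1) to 80711 FPKM (Fabp1 in vehicle 1). Differences were tested with limma on log2(FPKM + 1), and a Benjamini-Hochberg adjusted p under 0.05 over all 10786 tested symbols was the threshold. All 8 members with their own row had the mean of 1 FPKM needed for the test. Of these 8, 0 passed, beside 15 of all tested symbols (0.139%), of which 5 rose (0.0464%) and 10 fell (0.0927%). With quantile normalization 12 rose and 12 fell. An unadjusted p under 0.05 was found for 2 members (Fabp2 and Slc27a1, both lower), beside 13.4% of all tested symbols (5.03% higher, 8.38% lower). Both UAB126 libraries lay below both vehicle libraries in 3 members (Fabp1, Fabp2 and Slc27a1), beside 26.9% of all tested symbols. They lay above both in 1 member (Fabp7), beside 22.7%. With 8 genes, these counts were not read as a result about the family. The median log2 difference, UAB126 minus vehicle, was -0.31 over the 8 members and -0.03 over all tested symbols. An exact permutation of 2 against 2 libraries cannot go below p = 0.333 and was not used.

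**Figure D1:**
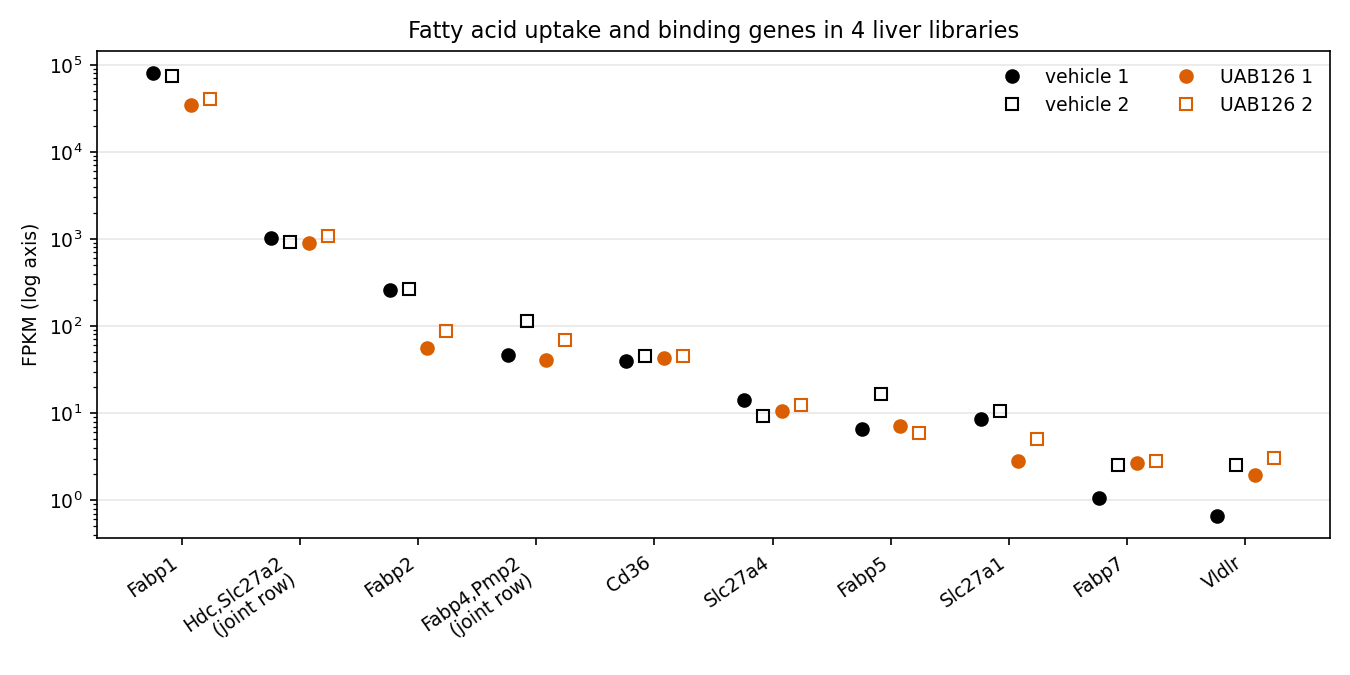
FPKM (log axis) of the 8 members with their own row and of the 2 joint rows, ordered by their mean, with a point for each library (black, vehicle; orange, UAB126; circles, replicate 1; squares, replicate 2). Fabp1 lies near the top of the axis in every library, with both UAB126 points below both vehicle points, as in Fabp2 and Slc27a1.

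Fabp1 was by far the most abundant of the binding proteins. It stood at 80711 and 74496 FPKM in vehicle 1 and 2 and at 34989 and 40938 FPKM in UAB126 1 and 2. The groups did not overlap, and the vehicle mean (77603 ± 4395 FPKM, SD, n = 2) was 2.04 times the UAB126 mean (37964 ± 4207 FPKM). The log2 difference was -1.03 ± 0.43 (limma's moderated SE, here and below; n = 2 per group; limma adjusted p = 0.384, 95% interval -2.11 to 0.04). Fabp1 lies on chromosome 6 at 71199827 to 71205023 (GRCm38, which is mm10) and has 1 annotated transcript, of 553 bases.

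The lower FPKM of Fabp1 went with that of other abundant transcripts. Among 150 tested symbols averaging 1000 FPKM or more, 91 lay lower in both UAB126 libraries and 8 lay higher, beside 26.9% and 22.7% of all tested symbols, and their median log2 difference was -0.70. The ratio of Fabp1 to Ttr, which encodes the plasma carrier transthyretin, was 2.35 and 1.69 in vehicle and 1.78 and 1.62 with UAB126. The ratio to Apoa1, the main apolipoprotein of HDL, was 3.61 and 2.08 in vehicle and 3.70 and 2.31 with UAB126, and in both ratios the groups overlapped. Of the 9 hepatocyte markers with a value in every library, the ratio of Fabp1 to the marker overlapped between groups for 5 (Apoa1, Apoc3, Ttr, Asgr1 and Fgb). It was lower in both UAB126 libraries for the other 4 (Tat, Cps1, Hnf4a and Serpina1a) and higher for 0. Against Hnf4a, a hepatocyte transcription factor gene, it was 656 and 614 in vehicle and 218 and 232 with UAB126. By rank among all symbols, Fabp1 was 8 and 13 in vehicle and 6 and 9 with UAB126. With quantile normalization, which keeps only ranks within a library, the direction of Fabp1 turned (log2 difference 0.59 ± 0.33, limma adjusted p = 0.472).

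Fabp2 had the largest difference of the members. Its level was 256.6 and 268.9 FPKM in the vehicle pair, against 55.7 and 86.8 FPKM in the UAB126 pair, a vehicle mean 3.69 times that with UAB126. The vehicle libraries were within 1.05 times of each other and the groups were far apart, while the UAB126 libraries differed 1.56 times. The log2 difference was -1.90 ± 0.28 (limma adjusted p = 0.125, unadjusted p = 8.39e-04). With quantile normalization it was -1.62, and with the trend with transcript length removed -1.50 or -1.46, by the length used. When a library was left out it ran from -2.22 to -1.59, where the direction could not turn because the groups did not overlap. Fabp2 lies on chromosome 3 at 122895072 to 122899506, with 1 annotated transcript of 965 bases.

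Fabp1 exceeded Fabp2 by 315 and 277 times in vehicle and by 629 and 472 times with UAB126. The 2 groups did not overlap in this ratio, which is taken within each library. Fabp2 is a classic enterocyte gene, and the enterocyte markers Sis, Lct and Fabp6 are listed at 0 in all 4 libraries. Of the 8 enterocyte markers, 7 stayed under 1 FPKM throughout. The exception, Apoa4, which liver also makes, read 1021 and 831 FPKM in the vehicle pair of libraries, against 254.0 and 223.5 FPKM in the UAB126 pair.

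Fabp5 followed 1 library rather than the groups. It read 6.55 and 16.4 FPKM in the vehicle pair of libraries, against 7.07 and 5.97 FPKM in the UAB126 pair. Vehicle 2 was high and the other 3 libraries were close together, so the groups overlapped (log2 difference -0.61 ± 0.41, limma adjusted p = 0.510). Without vehicle 2 the difference was -0.0097, and without vehicle 1 it was -1.21. At the length of its principal transcript (987 bases), the values of Fabp5 correspond to about 86, 126, 134 and 80 fragments in the order vehicle 1, vehicle 2, UAB126 1 and UAB126 2. Fabp5 lies on chromosome 3 at 10012548 to 10016607.

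The joint row of Fabp4 and Pmp2, neighbours of Fabp5 on chromosome 3, showed the same high vehicle 2. It read 46.0 and 114.2 FPKM in the vehicle pair of libraries, against 40.6 and 68.2 FPKM in the UAB126 pair, and the groups overlapped (log2 difference -0.46 ± 0.49, limma adjusted p = 0.676). A separate row of Pmp2, a myelin fatty acid binding protein, is listed at 0 in all 4 libraries. Without vehicle 2 the difference of the joint row was 0.19. The 8 adipocyte markers with a row summed to 245.4 and 85.8 FPKM in the vehicle pair, against 19.4 and 47.0 FPKM in the UAB126 pair, an order unlike that of the joint row, and Cfd (adipsin) was most of the vehicle sums. Of the 6 tested, 3 were lower in both UAB126 libraries (Cfd, Lipe and Slc2a4) and 0 higher (26.9% and 22.7% of all tested symbols). Adipoq, Retn and Adrb3 overlapped between the groups. Lipe, the hormone-sensitive lipase gene, had 17.5 and 14.3 FPKM against 7.62 and 7.38 FPKM, and Slc2a4, the GLUT4 gene, had 1.41 and 6.68 FPKM against 0.111 and 0.293 FPKM. The adipokine gene Adipoq read 2.80 and 2.59 FPKM in the vehicle pair of libraries, against 2.09 and 4.47 FPKM in the UAB126 pair, and Plin1 and Lep stayed under 1 FPKM in all 4 libraries.

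Fabp7 was the lowest of the binding proteins among the members. It read 1.07 and 2.56 FPKM in the vehicle pair of libraries, against 2.67 and 2.84 FPKM in the UAB126 pair. Both UAB126 libraries lay above both vehicle libraries, but vehicle 2 was close to UAB126 1 and only vehicle 1 stood apart. The log2 difference was 0.47 ± 0.31 (limma adjusted p = 0.505). The FPKM values correspond to about 11, 15, 39 and 29 fragments, so counting error is large. The difference was 0.07 without vehicle 1 and 0.86 without vehicle 2, and 0.94 once the trend with transcript length was removed (limma adjusted p = 0.206). Fabp7 lies on chromosome 10 at 57784881 to 57788450.

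Among the binding protein rows of members, Fabp1 made up 99.5% to 99.7% of the summed FPKM in each library, the joint row of Fabp4 and Pmp2 included. Fabp3, which is no member, is not in this sum or in the order below. The summed level was 81021 and 74898 FPKM in the vehicle pair, against 35095 and 41102 FPKM in the UAB126 pair. By mean level the order of the members was Fabp1, Fabp2, the Fabp4 and Pmp2 row, Fabp5 and Fabp7. In the UAB126 libraries Fabp2 and the Fabp4 and Pmp2 row, neighbours in that order, overlapped in level (55.7 and 86.8 against 40.6 and 68.2 FPKM).

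Cd36 was the steadiest member. This membrane receptor for long-chain fatty acids and oxidised lipoproteins read 39.7 and 44.9 FPKM in the vehicle pair of libraries, against 42.8 and 45.3 FPKM in the UAB126 pair. The 4 values lay close together and the groups overlapped. The log2 difference was 0.06 ± 0.19 (limma adjusted p = 0.905), and its 95% interval, -0.43 to 0.55, leaves room for a change of either sign. Cd36 lies on chromosome 5 at 17781690 to 17888801 and has 6 annotated transcripts.

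Of the transport proteins, Slc27a1 was lower in both UAB126 libraries. Slc27a1 encodes FATP1, the form best known from muscle and fat. It read 8.45 and 10.5 FPKM in the vehicle pair of libraries, against 2.79 and 5.04 FPKM in the UAB126 pair, and the groups did not overlap. The vehicle mean was 2.42 times the UAB126 mean (log2 difference -1.12 ± 0.28, limma adjusted p = 0.259, unadjusted p = 0.00865). With quantile normalization it was -1.13, and with the trend with transcript length removed -1.13 or -1.12, by the length used. When a library was left out it ran from -1.46 to -0.79, where the direction could not turn because the groups did not overlap. Slc27a1 lies on chromosome 8 at 71568882 to 71587302.

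Slc27a4, which encodes the broadly expressed FATP4, did not separate the groups. It read 14.1 and 9.28 FPKM in the vehicle pair of libraries, against 10.5 and 12.4 FPKM in the UAB126 pair, with both UAB126 values between the 2 vehicle values. The log2 difference was -0.01 ± 0.25 (limma adjusted p = 0.994, 95% interval -0.63 to 0.62). The ratio of Slc27a4 to Slc27a1 within a library was 1.67 and 0.883 in vehicle and 3.78 and 2.46 with UAB126, and the groups did not overlap. Slc27a4 lies on chromosome 2 at 29802634 to 29817522.

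The joint row of Hdc and Slc27a2 held most of the signal among the transport protein members. Slc27a2 encodes FATP2, a transporter and very long chain acyl-CoA synthetase of liver and kidney, and Hdc encodes histidine decarboxylase. The joint row read 1031 and 930.7 FPKM in the vehicle pair of libraries, against 905.0 and 1087 FPKM in the UAB126 pair, and the groups overlapped (log2 difference 0.02 ± 0.27, limma adjusted p = 0.982). A separate row of Hdc read 0.524 and 0.613 FPKM in the vehicle pair of libraries, against 1.91 and 2.04 FPKM in the UAB126 pair. Slc27a5, the liver form FATP5 that also activates bile acids, is no member and was looked at after its values were seen. It read 436.8 and 506.8 FPKM in the vehicle pair of libraries, against 380.9 and 457.1 FPKM in the UAB126 pair, so the groups overlapped there too.

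Vldlr was low in all 4 libraries. It read 0.658 and 2.56 FPKM in the vehicle pair of libraries, against 1.95 and 3.04 FPKM in the UAB126 pair. Vehicle 1 was low, vehicle 2 lay between the UAB126 values, and the groups overlapped. The vehicle libraries differed 3.89 times, more than the group means, whose ratio was 1.55 (log2 difference 0.51 ± 0.42, limma adjusted p = 0.583). The difference was -0.047 without vehicle 1 and 1.06 without vehicle 2 (limma adjusted p = 0.230). Vldlr lies on chromosome 19 at 27216484 to 27254231 and has 8 annotated transcripts, the longest of 7971 bases.

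**Figure D2:**
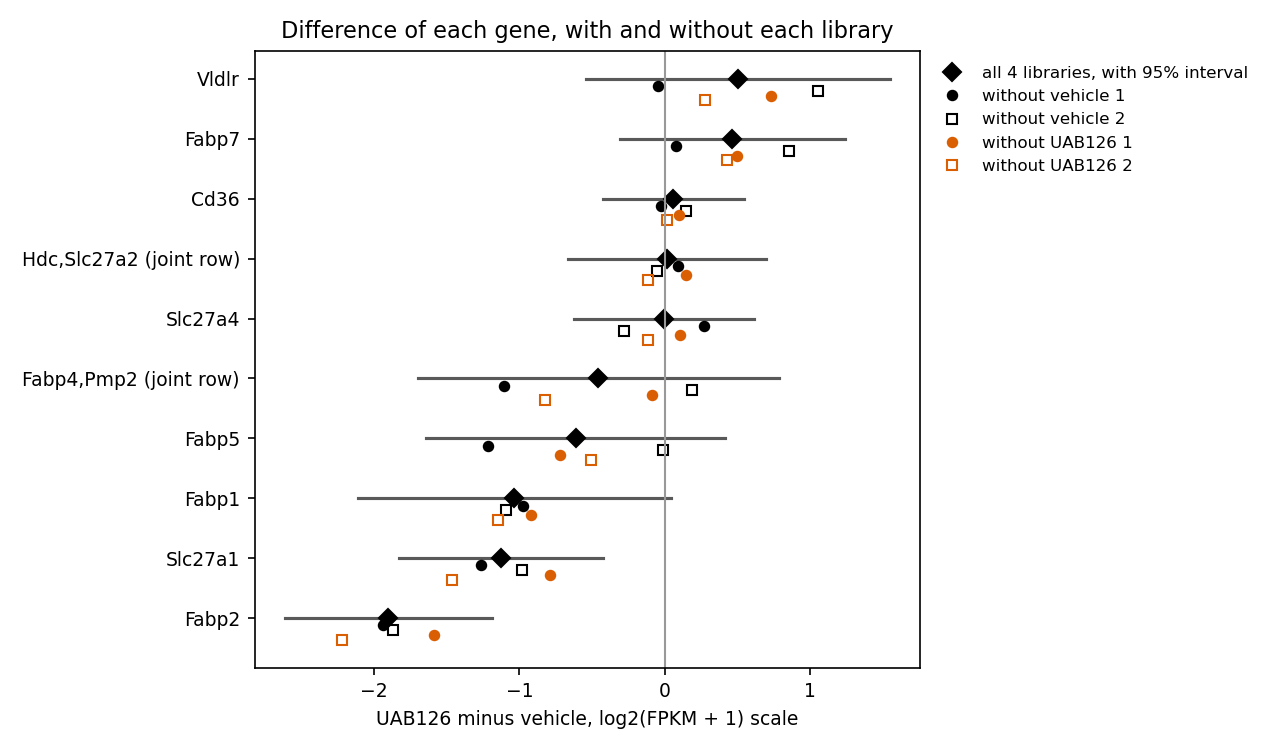
UAB126 minus vehicle on the log2(FPKM + 1) scale for each member or joint row, with limma's 95% interval (diamond and bar) and the value with 1 library left out (small symbols). Fabp2, Slc27a1, Fabp1 and Fabp7, whose groups do not overlap, cannot cross 0 when 1 library is left out. Fabp5, whose groups overlap, moves from -1.21 without vehicle 1 to -0.0097 without vehicle 2.

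The FABP transcripts are short, and short transcripts as a class differed between libraries. Fabp1, Fabp2, Fabp5 and Fabp7 are among the 977 tested genes with the shortest principal transcripts (66 to 1150 bases). In that class the median log2 difference was -0.42, against 0.15 in the class of equal share with the longest transcripts, which holds Vldlr. The median deviation from the mean of the gene was 0.48 in vehicle 2 and -0.44 in UAB126 1 there, and -0.03 and 0.01 in the other two libraries. With this trend removed, the log2 difference was -1.50 for Fabp2, -0.45 for Fabp1, -0.22 for Fabp5 and 0.93 for Fabp7. That of Slc27a1, whose principal transcript has 2795 bases, was -1.13. This correction by principal transcript was chosen after seeing the data. With the longest transcript of each gene as its length, the differences were -1.46, -0.40, -0.61 and 0.94 for the 4 binding proteins. For Fabp5 that length is 3238 bases, of a transcript with a retained intron. None of the members passed under either correction.

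**Figure D3:**
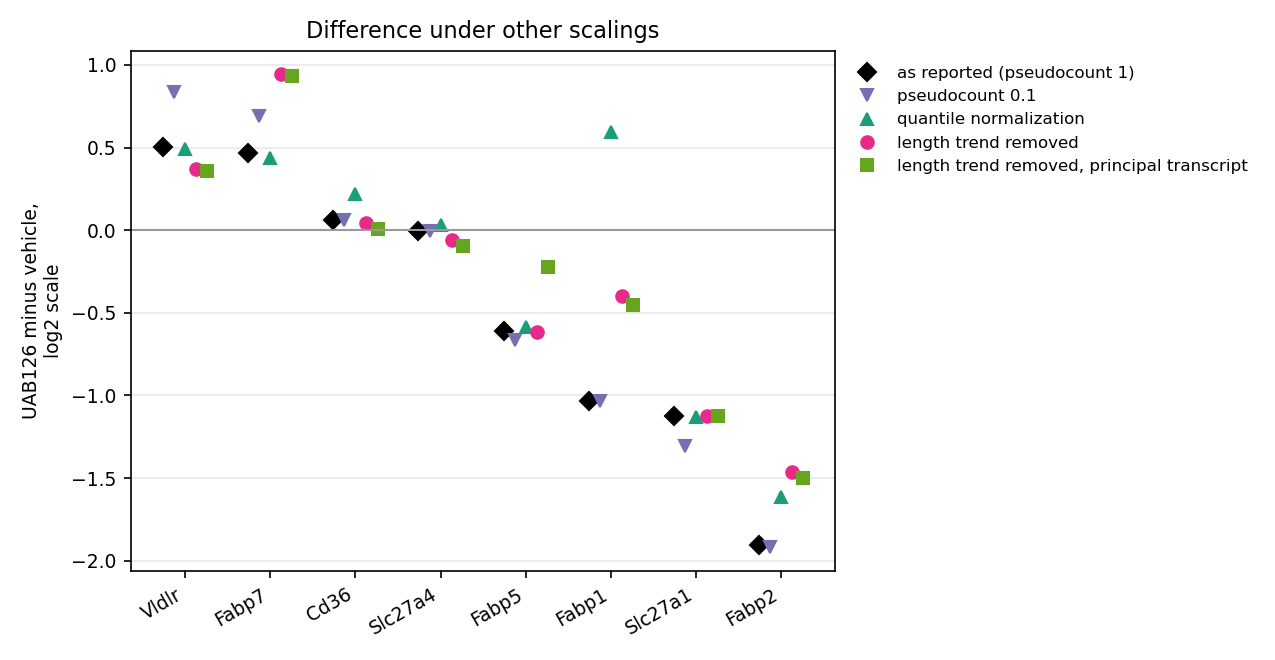
UAB126 minus vehicle on the log2 scale for the 8 members with their own row, as reported and under a smaller pseudocount, quantile normalization and removal of the trend with transcript length. Fabp1 ranges from -1.03 as reported to 0.59 with quantile normalization, while Fabp2 stays between -1.92 and -1.46.

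Markers of other cells moved with some members. In whole liver, fewer cells of a type and less RNA per cell cannot be told apart. The summed level of the 6 skeletal muscle markers was 136.7 and 778.0 FPKM in the vehicle pair, against 3.87 and 39.5 FPKM in the UAB126 pair. Mb (myoglobin) led this sum, with 122.9 and 701.2 FPKM against 3.36 and 36.2 FPKM, and Ckm (muscle creatine kinase) was at 11.1 and 56.6 FPKM against 0.342 and 2.09 FPKM. The fast myosin gene Myh4 and Tnnt3 stayed under 1 FPKM in all libraries. All 3 of the markers tested were lower in both UAB126 libraries, beside 26.9% of all tested symbols.

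Across the 4 libraries the muscle sum had the same order as Slc27a1, with vehicle 2 highest, then vehicle 1, UAB126 2 and UAB126 1. Fabp2 had this order too, although its vehicle libraries differed only 1.05 times. Fabp3, the heart and muscle binding protein, also had this order, with 11.4 and 51.7 FPKM in the vehicle pair, against 3.97 and 7.40 FPKM in the UAB126 pair (log2 difference -1.98 ± 0.70, limma adjusted p = 0.338). Its difference was -3.03 without vehicle 1 and -0.93 without vehicle 2. In Fabp5 only the high value of vehicle 2 was shared. The order was not particular to muscle markers. The hepatocyte markers Ttr, Apoa1, Apoc3, Asgr1, Serpina1a and Fgb had it as well, whereas Tat, Cps1 and Hnf4a did not. Ttr, for instance, read 34335 and 44092 FPKM in the vehicle pair, against 19625 and 25328 FPKM in the UAB126 pair. How many of all tested symbols have this order was not counted. The class with the shortest transcripts, which holds Fabp2 and Fabp3, also had its highest median deviation in vehicle 2 (0.48) and its lowest in UAB126 1 (-0.44). The part of muscle RNA in the values of Slc27a1, Fabp2, Fabp3 and Fabp5 was not tested.

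The summed level of the 10 Kupffer cell and macrophage markers was 115.4 and 347.6 FPKM in the vehicle pair, against 237.1 and 315.5 FPKM in the UAB126 pair. Vehicle 1 was low in this sum, as it was in Fabp7 and Vldlr. Marco, a scavenger receptor of Kupffer cells, read 0.887 FPKM in vehicle 1, far under the 16.3, 12.9 and 19.9 FPKM of vehicle 2, UAB126 1 and UAB126 2. The 9 sinusoidal endothelial markers summed to 82.7 and 134.6 FPKM in vehicle and to 140.9 and 155.8 FPKM with UAB126. Each UAB126 value exceeded each vehicle value for 4 of these 9, and for 3 of the 10 Kupffer cell and macrophage markers, beside 22.7% of all tested symbols. The reverse held for 0 markers in either set, beside 26.9% of all tested symbols. The part of these cells in the values of Fabp7, Vldlr, Cd36 and the Fabp4 and Pmp2 row was not tested.

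**Figure D4:**
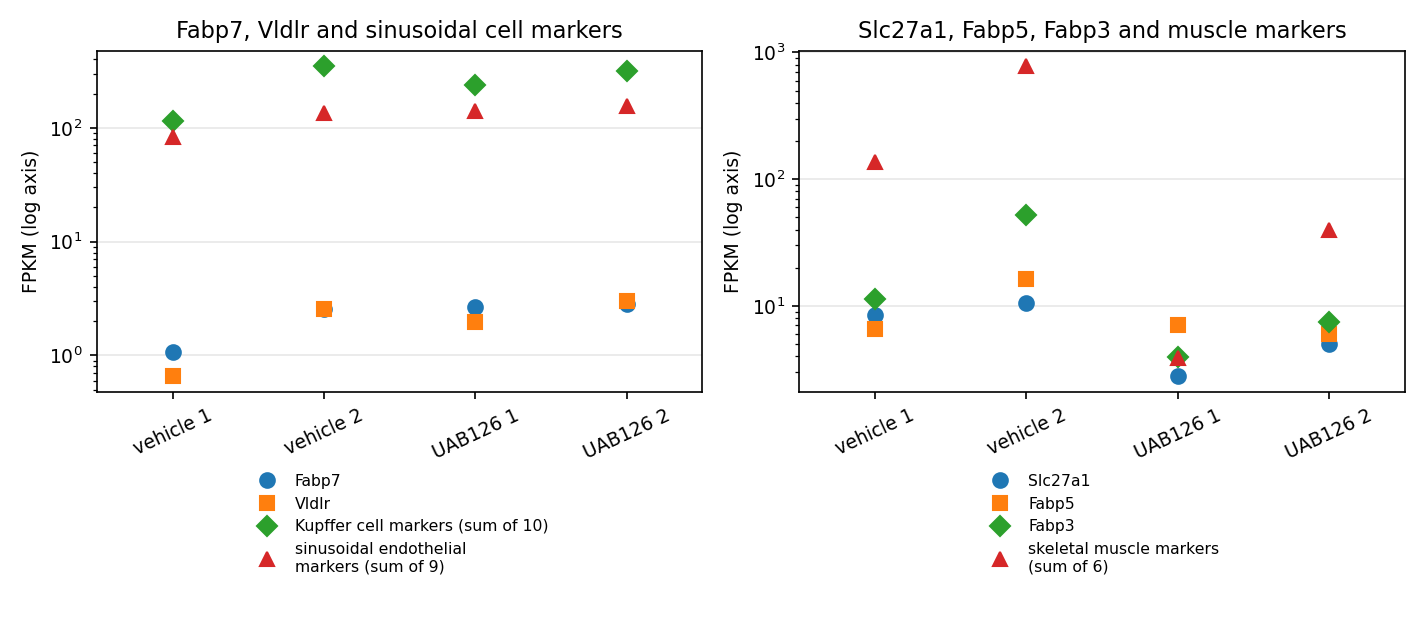
FPKM (log axis) in each library of Fabp7, Vldlr and the summed Kupffer cell and sinusoidal endothelial markers (left), and of Slc27a1, Fabp5, Fabp3 and the summed skeletal muscle markers (right). On the left vehicle 1 is the lowest library for each series; on the right vehicle 2 is the highest, with a muscle sum of 778.0 FPKM.

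Other genes of fatty acid handling were described from lists. Of 20 further transport and binding proteins, 10 were tested and 0 passed (limma, with 3 at an unadjusted p under 0.05). In this list 1 was higher and 2 were lower in both UAB126 libraries (22.7% and 26.9% of all tested symbols, of which 13.4% had such a p), with a median log2 difference of -0.04. Besides Fabp3, the lower gene was Cav1, the caveolar coat protein, at 6.10 and 7.64 FPKM against 4.60 and 3.23 FPKM. The higher gene was Cd300lg, a receptor of endothelial cells, at 5.005 and 7.22 FPKM against 10.4 and 11.4 FPKM.

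Of 24 acyl-CoA synthetases and acyl-CoA binding proteins, which trap fatty acids after entry, 16 were tested and 0 passed (limma, with 4 at an unadjusted p under 0.05). In both UAB126 libraries 3 were higher and 8 lower (all tested symbols: 22.7% and 26.9%, with 13.4% at such a p), and the median log2 difference was -0.12. Acbd4, a peroxisomal acyl-CoA binding protein, read 47.3 and 50.1 FPKM in the vehicle pair of libraries, against 27.1 and 28.1 FPKM in the UAB126 pair. Acsl4, a synthetase that prefers arachidonic acid, was at 14.9 and 15.9 FPKM against 28.2 and 21.6 FPKM. The mitochondrial acetyl-CoA synthetase Acss1 was at 1.26 and 3.94 FPKM against 0.220 and 0.366 FPKM. Its log2 difference was -1.94 without vehicle 1 and -0.81 without vehicle 2.

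Of 22 lipoprotein receptors and their partners, 17 were tested and 0 passed (limma, with 5 at an unadjusted p under 0.05). In both UAB126 libraries 6 were higher and 4 lower (all tested symbols: 22.7% and 26.9%, with 13.4% at such a p), with a median log2 difference of 0.03. Mylip, a ubiquitin ligase that sends VLDLR and the LDL receptor to degradation, read 3.80 and 3.53 FPKM in the vehicle pair of libraries, against 6.39 and 6.65 FPKM in the UAB126 pair (log2 difference 0.69 ± 0.17, limma adjusted p = 0.260). Sort1, the sorting receptor sortilin, was at 3.13 and 3.59 FPKM against 7.40 and 5.97 FPKM. Lmf1, which matures lipoprotein lipase, was at 58.3 and 72.4 FPKM against 32.0 and 41.9 FPKM.

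A list of 21 genes held fatty acid sensing receptors, their coregulators and other transcription factors, such as Ahr, Atf4 and Nfe2l2. Of the 21, 16 were tested and 0 passed (limma, with 1 at an unadjusted p under 0.05). In both UAB126 libraries 8 were higher and 4 lower (all tested symbols: 22.7% and 26.9%, with 13.4% at such a p), and the median log2 difference was 0.24. The gene with the unadjusted p under 0.05 was Ahr, the aryl hydrocarbon receptor, with 3.99 and 3.40 FPKM in the vehicle pair, against 9.85 and 7.87 FPKM in the UAB126 pair (log2 difference 1.07 ± 0.20, limma adjusted p = 0.191). Ppard, which encodes PPAR-delta, was at 2.41 and 1.98 FPKM against 3.30 and 3.64 FPKM. Nfe2l2, which encodes NRF2, was at 49.8 and 45.1 FPKM against 37.7 and 31.2 FPKM. Ppara, which encodes PPAR-alpha, overlapped between the groups, at 115.6 and 71.6 FPKM against 82.2 and 99.8 FPKM.

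Of 14 genes associated with PPAR-gamma in fatty liver, a list drawn up with results of these samples known, 11 were tested. The list as drawn up also held the members Cd36, Fabp2 and Fabp4, which are described above and not counted here. Pparg itself is also in the list of sensing receptors and Lpl in that of lipoprotein uptake, and both are among the genes counted as lower in each. In both UAB126 libraries 6 were lower and 0 higher (all tested symbols: 26.9% and 22.7%), 4 had an unadjusted p under 0.05 (13.4%), the median log2 difference was -0.81, and 1 gene passed (0.139%). This was Cidea, a lipid droplet protein gene, with 7.17 and 5.87 FPKM in the vehicle pair, against 0.129 FPKM and a listed 0 in the UAB126 pair (log2 difference -2.82 ± 0.22, limma adjusted p = 0.0361). Its call was lost with a pseudocount of 0.1 (adjusted p = 0.0662), with no filter on low values (0.173), with the length trend removed (0.103) and without UAB126 1 (0.233) or UAB126 2 (0.344).

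Fitm1, which helps to store fat in droplets, read 144.7 and 138.2 FPKM in the vehicle pair of libraries, against 14.9 and 33.4 FPKM in the UAB126 pair (limma adjusted p = 0.125). Its log2 difference was -2.61, and ran from -3.16 to -2.05 when a library was left out. Cfd, the adipocyte protease adipsin, was at 213.2 and 51.2 FPKM against 2.54 and 19.6 FPKM, and Mogat1, a monoacylglycerol acyltransferase, at 3.09 and 1.66 FPKM against 0.620 and 0.656 FPKM. The remaining tested genes of this list overlapped between the groups and went both ways. Their log2 differences were 0.19 for Cidec, 0.16 for Adipoq, 0.35 for Pnpla2, -0.24 for Plin2 and -0.19 for Plin4. Cidea, Fitm1 and Cfd, like Fabp2, belong to the class with the shortest transcripts.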

How the data were processed

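RNA from the livers of 4 mouse libraries was measured by sequencing of polyadenylated RNA, per the labels' protocols. The authors deposited 1 table of FPKM values, with a column per library. Cuffdiff, Cufflinks 2.2.1, STAR 2.5.1b, Trim Galore 0.4.1 and build mm10 appear in the submitters' processing notes, with no order. Settings and annotation were not found in the sources used here. Of 27216 rows, 3634 without a symbol were left out and rows sharing a symbol were summed. The locus given for a row can span several neighbouring genes that have rows of their own, so gene positions, transcript lengths and APPRIS principal transcripts came from GENCODE M21 (GRCm38), by symbol. List genes without a row were matched by an older RefSeq symbol (GRCm38.p6).

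Symbols averaging 1 FPKM or more were fitted as log2(FPKM + 1) with limma 3.58.1 in R 4.3.3 (intensity trend, group as the only term, two-sided), a scale that understates changes of low genes. The fit was also run on simulated data, drawn as independent normal values with added changes. These hold no length trend and no library effect, so the run checks the code and not the fit to these data. Fragment steps were read from low values (under 0.3 FPKM) of genes with a single transcript over 1500 bases, less 200 bases, and are approximate. Of low values under 4.5 steps, 74.5% to 79.1% were within 0.1 of a whole number of fragments. A fragment number over the principal transcript carries the uncertainty of that length. Without strand information, overlapping genes cannot be told apart, and reads of Fabp5 could be split with similar genes such as the annotated Fabp5l2, so its value is uncertain.

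The members and lists were chosen with earlier results of these data known. Named were all members and, of each further list, genes past the threshold and up to 3 with the smallest unadjusted p among genes whose groups did not overlap. Ttr, Apoa1, Slc27a5 and single marker genes were picked after their values were seen. Python 3.11.15, pandas 2.3.3 and numpy 2.4.6 served for the other numbers.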

Additional observations from a re-analysis of the deposited data

How the results depend on the processing

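The members past the threshold numbered 0 in the reported fit (limma), 0 to 1 when a library was left out, and 0 under the changes of pseudocount, filter, scaling, length and prior spread. All genes past the threshold numbered 15 (5 higher, 10 lower). Their number was 27 with a pseudocount of 0.1 (12 higher, 15 lower), 0 with no filter on low values (1764 at an unadjusted p under 0.05), 24 with quantile normalization (12 higher, 12 lower) and 23 with the length trend removed by principal transcript (12 higher, 11 lower), an alternative chosen after seeing the data. With the longest transcript as the length it was 22 (12 higher, 10 lower). Both length fits tested only the 9770 symbols with a length, so the smaller set and the removed trend changed together. It ran from 0 (without UAB126 2, where 737 had an unadjusted p under 0.05) to 442 (without vehicle 1) when a library was left out, with 56 without vehicle 2 and 14 without UAB126 1, where the lone library of a group is assumed to vary like the others.

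The replicate numbers of the titles were also used as a block. Nothing in the labels says that equal numbers share an animal or a day, and across genes the replicate 1 minus replicate 2 differences of the groups correlated at 0.179, so the numbers were not taken as pairs. With the replicate block 148 genes and 1 member passed, Fabp2 (adjusted p = 0.0405), and of the other named genes Fitm1 also came to pass (0.0487).

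Directions turned as follows, on the log2 scale. With quantile normalization Fabp1 was at 0.59 and Slc27a4 at 0.033. When a library was left out, Cd36 ran from -0.027 to 0.15, the Fabp4 and Pmp2 row from -1.10 to 0.19, the Hdc and Slc27a2 row from -0.11 to 0.15, Slc27a4 from -0.28 to 0.27 and Vldlr from -0.047 to 1.06. The causes were not tested. Fabp2, Slc27a1, Fabp5 and Fabp7 kept their direction in every alternative in which they were tested. For Fabp2, Slc27a1 and Fabp7, whose groups did not overlap, the direction could not turn when a library was left out. The changes of filter and prior spread and the block leave the difference itself as it was. Fabp7 and Vldlr were not tested with a filter at a mean of 5 FPKM, and the joint rows, which have no single length, were not fitted with the length trend removed. Depth limits Fabp7 most.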
